A study of Homo sapiens with 8 samples.

Results

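The genes described here encode SPT5 and the factors that act with it while RNA polymerase II elongates a transcript, together with the kinases that drive this step. The 10 members were taken by symbol from the 61906 genes listed: SUPT5H and SUPT4H1 (the SPT5 and SPT4 subunits of DSIF), SUPT6H (the histone chaperone SPT6), CDK9 and CCNT1 (kinase and cyclin of P-TEFb), CDK12, CDK13 and CCNK (the CDK12 and CDK13 kinases with their shared cyclin K), and HEXIM1 and LARP7 (proteins of the 7SK particle). Each symbol matched a single row, and all 10 passed the filter of a mean of at least 1 TPM (the length-corrected share of a library's transcripts) over the 8 libraries.

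U251 cells, an established line from a human glioblastoma, carried no genetic change of the study's making (genotype WT in the labels). Cultures received DMSO as vehicle (4 libraries) or LLY-283, a compound that blocks the arginine methyltransferase PRMT5, at 100 nM (4 libraries), each for 24 h before RNA extraction. Both groups thus share the line and the solvent, and the line is a single cultured model without the other cells of a tumor. The labels call the libraries biological replicates without saying how the cultures were kept apart, so the p-values measure the spread between these libraries.

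After initiation, RNA polymerase II pauses close to the start of many genes, held by DSIF and the negative elongation factor NELF. P-TEFb phosphorylates SPT5, NELF and the C-terminal domain (CTD) of the polymerase, which releases it, while the 7SK particle stores P-TEFb in an inactive form. CDK12 and CDK13 with cyclin K phosphorylate the CTD further along the gene, and SPT6 travels with the polymerase and handles nucleosomes. SPT5 protein is itself a known substrate of PRMT5.

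With LLY-283, transcripts of SUPT4H1, SUPT6H and CCNK rose and those of CDK9 fell, each by less than 1.5-fold, while the other 6 members did not pass the test. These 4 are 40% of the 10 members, beside 26.2% of the 14478 genes tested (limma, adjusted p under 0.05). By direction, 3 members were higher, where 8.61% of genes tested were higher, and 1 was lower, where 17.6% were lower. The same 4 members were those whose vehicle and LLY-283 libraries did not overlap, a pattern seen in 29.2% of genes tested (9.63% higher and 19.6% lower). The change was above 0 in 6 members, beside 39.8% of genes tested. On the log2 scale the members had a median change of 0.04 and all genes tested had -0.05, and the median size of the change was 0.09 against 0.13. No member was among the 3.87% of genes past the additional limit of 1.5-fold. The genes tested include many at lower levels than the members. Under the filter of a mean of at least 5 TPM, which all 10 members passed, 3363 of 10971 genes were called. This is a larger share than 26.2%, with 1249 genes higher and 2114 lower. Of the members, 3 were again higher and 1 lower. The balance of all genes depended on the scaling, since decreases made up 67.1% of the 3788 calls on TPM and 49.2% of the 3793 calls with median-of-ratios scaling, whereas the 4 members kept their direction and call under both.

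To show where these 4 genes start, the 250 bases before the RefSeq start site (GRCh38.p14) are printed 5′ to 3′ on the strand of the gene. Capitals mark matches, on either strand, to the TATA box TATAAA, the CCAAT box CCAAT, the GC box GGGCGG, the cyclic AMP response element TGACGTCA, the E-box CACGTG, the ETS core CCGGAAG and the NRF1 motif.
SUPT4H1, minus strand, chr17:58352202-58352451: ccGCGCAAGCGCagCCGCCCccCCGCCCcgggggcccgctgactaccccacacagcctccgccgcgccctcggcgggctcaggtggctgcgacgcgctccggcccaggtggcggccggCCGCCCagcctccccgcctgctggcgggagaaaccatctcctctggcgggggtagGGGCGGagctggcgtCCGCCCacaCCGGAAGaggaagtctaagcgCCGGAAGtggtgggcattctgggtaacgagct
SUPT6H, plus strand, chr17:28661955-28662204: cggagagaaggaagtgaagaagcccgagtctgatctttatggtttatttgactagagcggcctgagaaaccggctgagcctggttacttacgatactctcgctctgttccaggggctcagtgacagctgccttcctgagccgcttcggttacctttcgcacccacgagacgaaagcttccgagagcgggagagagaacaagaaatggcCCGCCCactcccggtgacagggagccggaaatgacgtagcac
CCNK, plus strand, chr14:99481159-99481408: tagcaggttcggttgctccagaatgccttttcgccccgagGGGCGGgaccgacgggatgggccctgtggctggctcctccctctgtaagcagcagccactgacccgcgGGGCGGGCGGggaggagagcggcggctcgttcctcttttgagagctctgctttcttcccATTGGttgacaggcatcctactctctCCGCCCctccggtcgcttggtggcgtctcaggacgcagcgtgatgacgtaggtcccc
CDK9, plus strand, chr9:127785784-127786033: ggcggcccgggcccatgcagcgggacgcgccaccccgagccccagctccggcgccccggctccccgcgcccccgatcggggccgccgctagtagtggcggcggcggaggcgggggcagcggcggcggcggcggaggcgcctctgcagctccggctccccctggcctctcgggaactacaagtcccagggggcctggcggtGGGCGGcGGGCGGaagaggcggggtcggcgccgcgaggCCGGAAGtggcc
A GC box lay in all 4 windows, and in 9 of the 10 member promoters against 42.3% of 27305 promoters of that length (CDK12 had no match to any motif). The ETS core lay in the windows of SUPT4H1 and CDK9, which changed in opposite directions, and of CCNT1, and in 8.82% of all promoters. The GC boxes at positions -142 and -138 of CCNK overlap each other. HEXIM1 was the member with a TATA box (11.1% of all promoters), SUPT4H1 the member with the NRF1 motif (5.53%), CCNT1 the member with an E-box (6.49%) and LARP7 the member with the cyclic AMP response element (1.77%). A CCAAT box was found in 4 members (33% of all promoters). The share of G and C was 82.0% in CDK9, 75.2% in SUPT4H1, 65.2% in CCNK and 56.0% in SUPT6H, beside a median of 58.0% over all promoters. The windows of SUPT4H1 and CDK9 lie inside the span GENCODE gives the gene, as do those of SUPT5H and CCNT1. Most of that of CCNK and part of those of CDK13 and LARP7 do as well. The counts of motifs thus include sequence within the annotated gene. These are matches of letters and not measured binding.

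The cells showed the markers of their line. Vimentin (VIM), nestin (NES), CD44, SOX2, SOX9, GFAP and EGFR lay between 22.72 and 4390.24 TPM in every library and S100B between 2.34 and 4.94 TPM, while PTPRC, EPCAM, CDH1, PECAM1, MBP and RBFOX3 stayed at or under 0.61 TPM and CD68 at or under 2.93 TPM. LLY-283 replicate 4 stood apart in that 7.19% of its TPM came from mitochondrial genes, against 10.6% to 11% in the other 3 LLY-283 libraries and 10.2% to 10.8% with vehicle. Because TPM is a share of the library, the values of the 4 called members are also given without that replicate. TPM keeps no depth, so no counting error can be attached to the values. A lower TPM can reflect less of the transcript in each cell or fewer cells that hold it.

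The members spanned an 8.98-fold range of level. SUPT5H was the highest, with a mean of 121.3 TPM over the 8 libraries, and CCNT1 the lowest, with 13.5 TPM. The median gene tested had 17.1 TPM, so that 9 of the members lay above it and CCNT1, above 44.03% of the genes tested, below it. SUPT5H exceeded HEXIM1 (109.2 TPM) in 8 of 8 libraries, HEXIM1 exceeded SUPT6H (83.9 TPM), and SUPT6H exceeded SUPT4H1 (71.2 TPM), with no overlap between neighbours within either group. The next 4, SUPT4H1, CDK9 (58.7 TPM), LARP7 (53.5 TPM) and CCNK (51.5 TPM), were not separated in the same way. SUPT4H1 and CDK9 overlapped with vehicle but not with LLY-283, CDK9 and LARP7 overlapped with LLY-283 but not with vehicle, and LARP7 and CCNK overlapped in both. CDK9 was thereby the fourth highest member with vehicle and the 7th with LLY-283. CDK13 (36.5 TPM) exceeded CDK12 (31.7 TPM) in 8 of 8 libraries, although their ranges over the vehicle libraries overlapped.

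**Figure D1:**
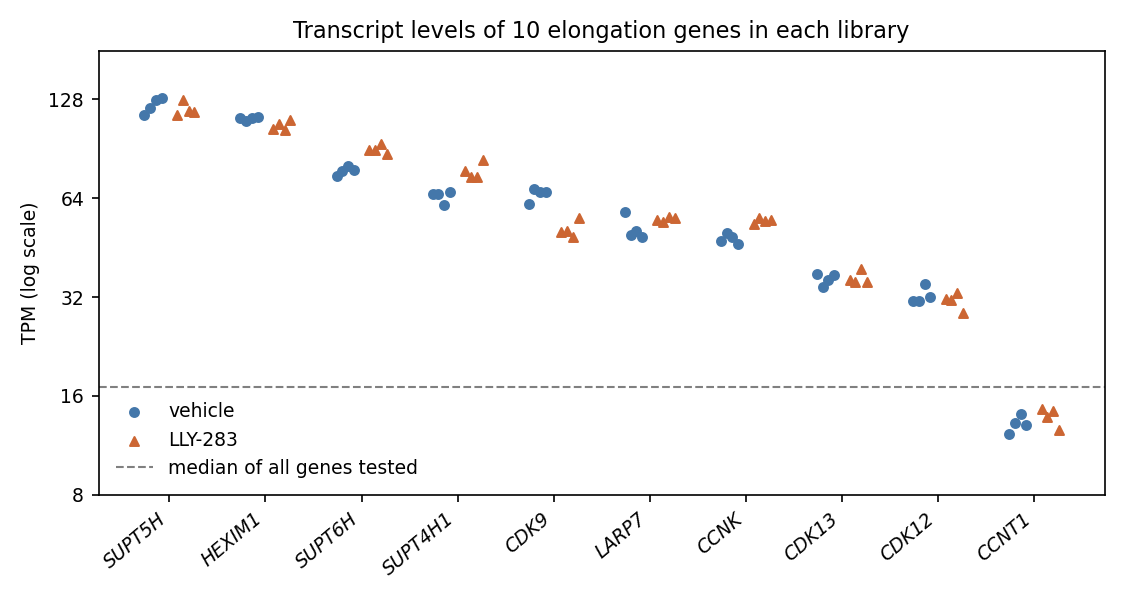
TPM of the 10 members in each library on a log2 axis, ordered by the mean over 8 libraries, with vehicle libraries as circles, LLY-283 libraries as triangles and the median of all genes tested as a dashed line. CDK9 lies level with SUPT4H1 with vehicle and below it with LLY-283, and CCNT1 lies under the median gene in every library.

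DSIF is built from a large and a small subunit. The small subunit SPT4 is encoded by SUPT4H1 (ENSG00000213246, chromosome 17, 58345175 to 58353093 of GRCh38, minus strand, 5 exons). Its level was 65.93, 65.93, 61.18 and 66.71 TPM in the vehicle libraries and 77.40, 74.16, 74.49 and 83.77 TPM in the LLY-283 libraries. All 4 LLY-283 libraries lay above all 4 vehicle libraries, and LLY-283 replicate 4 was the highest. The mean rose from 64.9 ± 2.53 to 77.5 ± 4.46 TPM (SD, n = 4 each), or by 19.3% (log2 change 0.25, standard error 0.046, adjusted p = 0.0041, limma). Without LLY-283 replicate 4 the log2 fold change was 0.21 (adjusted p = 0.00409, limma). The genes annotated over SUPT4H1, TSPOAP1-AS1 on the opposite strand and ENSG00000285897 on the same strand, reached at most 0.13 and 0.04 TPM, and its processed copies SUPT4H1P1 and SUPT4H1P2 at most 0.21 and 0.20 TPM.

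The large subunit SPT5, the substrate of CDK9 within DSIF, is encoded by SUPT5H (ENSG00000196235, chromosome 19, 39436156 to 39476670, plus strand, 30 exons). It measured 114.51, 120.81, 127.81 and 129.44 TPM with vehicle and 115.01, 127.12, 118.18 and 117.14 TPM with LLY-283. The groups overlapped over most of their range. The log2 fold change was -0.04, with a 95% confidence interval from -0.15 to 0.06 (adjusted p = 0.52, limma), so that the LLY-283 change of SUPT4H1 lay outside the interval of its partner. With single libraries left out it ranged from -0.08 without vehicle replicate 1 to -0.02 without vehicle replicate 4. The number of SUPT4H1 transcripts per SUPT5H transcript, a ratio within a library that no scaling of libraries can move, was 0.529 ± 0.042 with vehicle and 0.651 ± 0.057 with LLY-283 (SD, n = 4 each). The groups of this ratio did not overlap, and the exact permutation test (two-sided) gave p = 0.0286, the smallest that 4 against 4 libraries allow, and 0.0571 after adjustment over the 6 ratios computed.

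SPT6, which binds the elongating polymerase and histones, is encoded by SUPT6H (ENSG00000109111, chromosome 17, 28662198 to 28702679, plus strand, 37 exons). Its level was 74.81, 77.45, 80.43 and 78.13 TPM with vehicle and 89.94, 89.92, 93.57 and 87.21 TPM with LLY-283. The lowest LLY-283 library exceeded the highest vehicle library. The mean rose from 77.7 ± 2.31 to 90.2 ± 2.61 TPM (SD, n = 4 each), or by 16%, which is 0.21 on the log2 scale (standard error 0.033, adjusted p = 0.00181, limma). The change was 0.23 on the same scale without LLY-283 replicate 4 (adjusted p = 0.00149, limma). ENSG00000265205, annotated on the opposite strand of SUPT6H, was listed at 0 in all 8 libraries.

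CDK9 had the largest change of the 10 genes and was the single member called lower. This kinase subunit of P-TEFb is encoded by a compact gene (ENSG00000136807, chromosome 9, 127785679 to 127790792, plus strand, 7 exons). It measured 61.58, 68.50, 66.75 and 66.99 TPM in the vehicle libraries and 50.35, 50.85, 48.72 and 55.66 TPM in the LLY-283 libraries. Every LLY-283 library lay below every vehicle library, and LLY-283 replicate 4 was the closest to them. The mean fell from 66.0 ± 3.02 to 51.4 ± 2.99 TPM (SD, n = 4 each), or by 22.1%. The log2 fold change was -0.36 (95% confidence interval -0.47 to -0.25, standard error 0.049, adjusted p = 0.000916, limma), and by p-value the gene ranked 524 of 14478. Without LLY-283 replicate 4 the log2 fold change was -0.40 (adjusted p = 0.000501, limma). The 2 microRNA genes annotated inside CDK9, MIR3960 and MIR2861, were listed at 0 in all 8 libraries.

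The fall of CDK9 was not seen in CCNT1, which encodes its main cyclin partner, cyclin T1. CCNT1 (ENSG00000129315, chromosome 12, 48688458 to 48716998, minus strand, 9 exons) ranged from 12.23 to 14.13 TPM with vehicle and from 12.63 to 14.63 TPM with LLY-283, and the groups overlapped. Its log2 fold change of 0.07 had a 95% confidence interval from -0.07 to 0.21 (adjusted p = 0.438, limma), which excludes a fall of the size measured for CDK9. CCNT1 had a log2 change of 0.16 under quantile normalization, the alternative in which it passed (adjusted p = 0.0413, limma), 0.03 with the dependence on GC content and length taken out (adjusted p = 0.688, limma) and 0.04 without vehicle replicate 1 (adjusted p = 0.724, limma). Without LLY-283 replicate 4 it was 0.11 (adjusted p = 0.173, limma). There were 0.200 ± 0.0082 CCNT1 transcripts per CDK9 transcript with vehicle and 0.271 ± 0.031 with LLY-283 (SD, n = 4 each), a 1.35-fold difference. The lowest LLY-283 value of this ratio, 0.227 in replicate 4, still exceeded the highest vehicle value, 0.212 (exact permutation test, two-sided, p = 0.0286, adjusted p = 0.0571 over 6 ratios). The second cyclin of P-TEFb, CCNT2, had 17.9 ± 1.56 TPM with vehicle and 18.7 ± 2.86 TPM with LLY-283 (SD, 4 libraries each), a log2 change of 0.06 within the spread between libraries (adjusted p = 0.74, limma). With single libraries left out the change of CCNT2 ranged from 0.0013 to 0.17, the highest without LLY-283 replicate 4 (adjusted p = 0.114, limma).

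**Figure D2:**
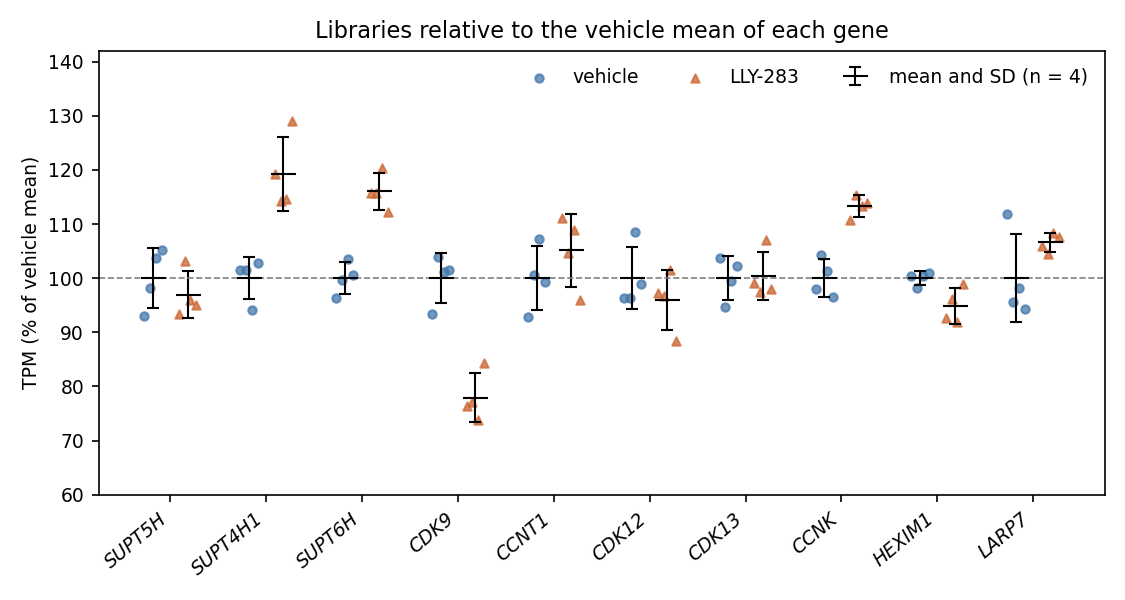
TPM of each library as a percentage of the vehicle mean of the gene, with vehicle libraries as circles, LLY-283 libraries as triangles and black bars for the mean and SD (n = 4). The triangles of SUPT4H1, SUPT6H and CCNK lie above all circles of the same gene and those of CDK9 below them, while the groups of the other 6 genes overlap.

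Of the second pair of elongation kinases and their cyclin, the cyclin passed the test. CDK12 (ENSG00000167258, chromosome 17, 39461486 to 39567559, plus strand, 14 exons), the kinase known to sustain the expression of long genes of the DNA damage response, ranged from 31.15 to 35.08 TPM with vehicle and from 28.58 to 32.84 TPM with LLY-283. CDK13 (ENSG00000065883, chromosome 7, 39950121 to 40099580, plus strand, 14 exons), its close relative, ranged from 34.43 to 37.73 TPM and from 35.45 to 38.94 TPM. Both pairs of ranges overlapped. The log2 fold change was -0.06 for CDK12 (95% confidence interval -0.18 to 0.06, adjusted p = 0.461, limma) and 0.01 for CDK13 (95% confidence interval -0.09 to 0.10, adjusted p = 0.946, limma). The lncRNA gene ENSG00000289269, which shares 512 bases with CDK13 on the same strand, lay between 0.58 and 1.70 TPM with vehicle and between 0.20 and 0.98 TPM with LLY-283, and RNU6-233P, opposite CDK12, was listed at 0. For CDK12 the log2 change was -0.02 both without vehicle replicate 3 and without LLY-283 replicate 4. The CDK12 to CDK13 ratio was 0.890 ± 0.062 with vehicle and 0.850 ± 0.037 with LLY-283 (exact permutation test, two-sided, p = 0.314).

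Cyclin K, which both kinases need, is encoded by CCNK (ENSG00000090061, chromosome 14, 99481169 to 99535044, plus strand, 11 exons). It measured 47.27, 50.32, 48.86 and 46.59 TPM with vehicle and 53.42, 55.67, 54.71 and 54.97 TPM with LLY-283. The 4 LLY-283 libraries were close to each other and all above the vehicle libraries. The mean rose from 48.3 ± 1.67 to 54.7 ± 0.940 TPM (SD, n = 4 each), or by 13.3% (log2 change 0.18, standard error 0.034, adjusted p = 0.00462, limma), and the log2 change was 0.18 without LLY-283 replicate 4 (adjusted p = 0.00719, limma). CCDC85C overlaps CCNK by 34855 bases on the opposite strand and had a log2 fold change of 0.03 (adjusted p = 0.745, limma). Its level, 19.6 ± 1.65 TPM with vehicle and 19.98 ± 0.879 TPM with LLY-283, overlapped between the groups. ENSG00000258749, on the same strand as CCNK, reached at most 0.05 TPM. Whether the reads were counted by strand is not given in the sources used here. The ratio of CCNK to the sum of CDK12 and CDK13 was 0.703 ± 0.043 with vehicle and 0.811 ± 0.042 with LLY-283 (SD, n = 4 each). Vehicle replicate 2, at 0.767, reached into the LLY-283 range, and the exact permutation test (two-sided) gave p = 0.0571.

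**Figure D3:**
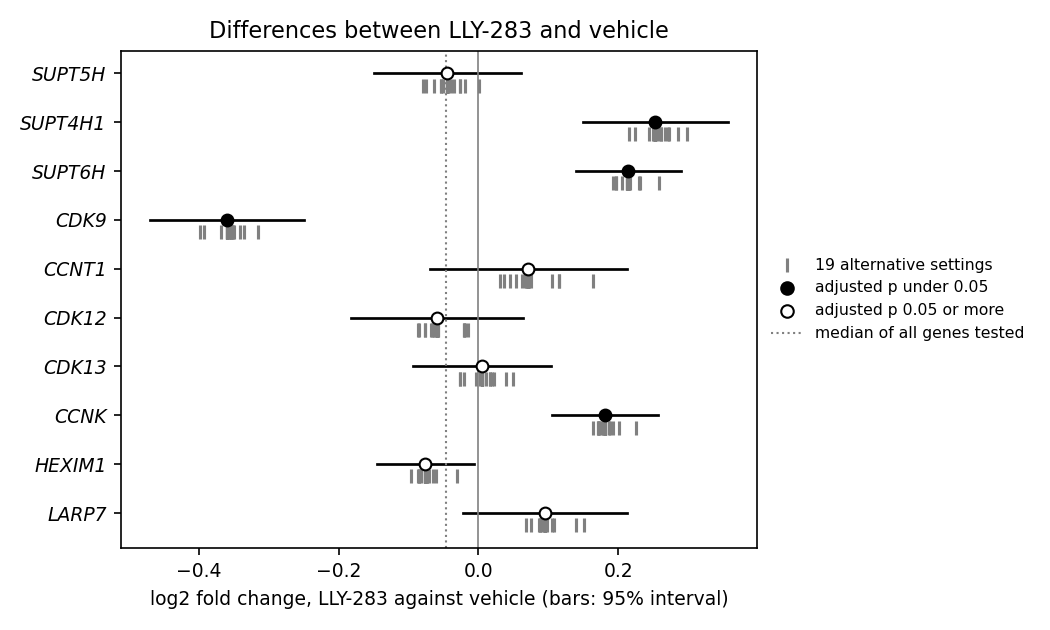
Log2 fold change of each member (LLY-283 against vehicle, limma) with its 95% confidence interval, filled where the adjusted p-value was under 0.05, with grey ticks for the 19 alternative ways of processing and a dotted line at the median of all genes tested. The ticks of CDK9 lie between -0.40 and -0.32, and those of SUPT4H1, SUPT6H and CCNK all lie above 0.16.

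In the 7SK particle, HEXIM1 is the protein that inhibits P-TEFb and LARP7 the protein that binds and protects the 7SK RNA. HEXIM1 (ENSG00000186834, chromosome 17, 45148475 to 45152099, plus strand, a single exon) measured 112.58, 110.03, 112.56 and 113.23 TPM with vehicle and 103.90, 107.74, 102.95 and 110.96 TPM with LLY-283. Of the LLY-283 libraries, 3 lay below all vehicle libraries and replicate 4 lay within them. The log2 fold change of -0.08 did not pass the threshold (95% confidence interval -0.15 to -0.01, adjusted p = 0.101, limma). Without LLY-283 replicate 4 it was -0.10 and passed (adjusted p = 0.0191, limma). With all libraries it passed at -0.09 with the dependence on GC content and length taken out (adjusted p = 0.0407, limma) and at -0.08 without mitochondrial genes (adjusted p = 0.0369, limma), and with median-of-ratios scaling it was -0.03 (adjusted p = 0.55, limma). HEXIM2-AS1, annotated over 1700 bases of HEXIM1 on the opposite strand, lay between 0.80 and 1.57 TPM with vehicle and between 0.30 and 0.84 TPM with LLY-283. There were 1.70 ± 0.092 HEXIM1 transcripts per CDK9 transcript with vehicle and 2.07 ± 0.058 with LLY-283 (SD, n = 4 each). These ratios did not overlap between the groups (exact permutation test, two-sided, p = 0.0286, adjusted p = 0.0571 over 6 ratios).

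LARP7 (ENSG00000174720, chromosome 4, 112637077 to 112657696, plus strand, 13 exons) measured 57.91, 49.47, 50.82 and 48.80 TPM with vehicle and 54.84, 54.09, 56.07 and 55.68 TPM with LLY-283. Vehicle replicate 1 exceeded every LLY-283 library, and the other 3 vehicle libraries lay below all of them. With all libraries the log2 fold change was 0.10 (95% confidence interval -0.02 to 0.21, adjusted p = 0.211, limma). Without vehicle replicate 1 it was 0.15 and passed the threshold (adjusted p = 0.0137, limma), the single alternative of 19 in which it did. The ratio of LARP7 to HEXIM1 was 0.462 ± 0.036 with vehicle and 0.519 ± 0.021 with LLY-283 (exact permutation test, two-sided, p = 0.0857). The host gene of the miR-302 cluster, which lies across LARP7 on the opposite strand, was at 0.25 TPM or less in every library. The copies LARP7P1, LARP7P2, LARP7P3 and LARP7P4 and the microRNA genes MIR367 and MIR302A to MIR302D were listed at 0.

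**Figure D4:**
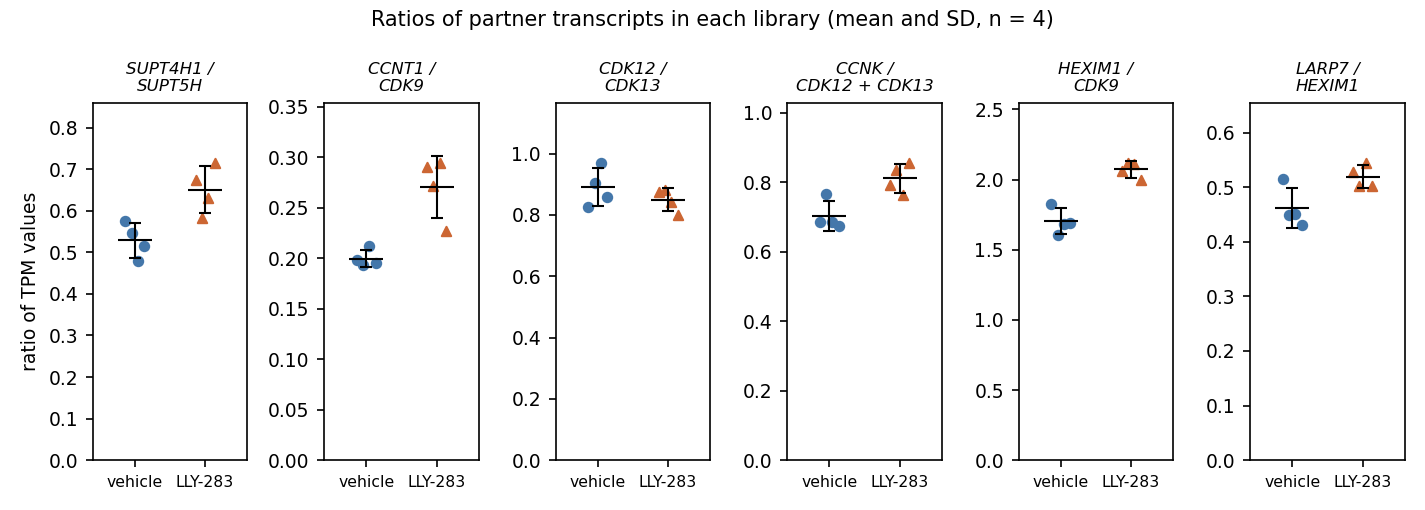
Ratio of the TPM values of partner genes within each library for the 6 ratios computed, on linear axes from 0, with vehicle libraries as circles, LLY-283 libraries as triangles and black bars for the mean and SD (n = 4). The groups are apart for SUPT4H1 to SUPT5H, CCNT1 to CDK9 and HEXIM1 to CDK9 and overlap for the other 3.

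Among the remaining proteins of P-TEFb and the 7SK particle, MEPCE, the enzyme that caps the 7SK RNA, fell. It measured 38.01, 43.01, 41.14 and 41.46 TPM with vehicle and 33.39, 33.41, 33.92 and 35.32 TPM with LLY-283, and the groups did not overlap. MEPCE changed by -0.26 on the log2 scale (standard error 0.043, adjusted p = 0.00234, limma). HEXIM2, the relative of HEXIM1, had a log2 fold change of -0.08 (adjusted p = 0.456, limma) at levels of 9.21 ± 0.753 and 8.68 ± 0.605 TPM (SD, n = 4 each). The change of HEXIM2 ranged from -0.13 without LLY-283 replicate 4 to -0.04 without vehicle replicate 1. The 7SK RNA itself, RN7SK, has no poly(A) tail and is measured poorly by the poly(A) capture used. It was listed at 100.60, 28.23, 21.29 and 33.28 TPM with vehicle and at 12.78, 15, 34.95 and 11.47 TPM with LLY-283. The groups overlapped through LLY-283 replicate 3, and the log2 fold change of -1.17 did not pass the threshold (95% confidence interval -2.26 to -0.08, adjusted p = 0.107, limma). Of 19 alternatives 18 did not call it. It was -0.70 without vehicle replicate 1, the highest library (adjusted p = 0.212, limma), and -1.53 without LLY-283 replicate 3, where it passed (adjusted p = 0.0483, limma).

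The wider machinery was described with 10 lists of 78 genes in all, each of which was tested. One list holds 4 damage response genes known to depend on CDK12, which are not part of that machinery. Of the 78 genes 13 rose, 13 fell and 52 did not pass the test, so that 33.3% were called beside 26.2% of all genes tested. Of the 13 that fell, 3 were damage response genes. The median log2 change of the 78 genes was -0.01. With a replicate block 8 of these genes were higher in place of 13, among them ELL2, NELFCD, LEO1, SETD2, SSU72, INTS11 and POLR2F. Most of the other genes that rose (NELFA, CTR9, CTDP1, PPP4R2, INTS13 and POLR2C) thus lost their call in that fit. Both subunits of NELF that passed, NELFCD (log2 fold change 0.20, adjusted p = 0.0062) and NELFA (0.19, adjusted p = 0.0295, limma), rose, and the other 2 did not pass. In the PAF1 complex, which travels with the elongating polymerase, LEO1 (log2 fold change 0.16, adjusted p = 0.00346) and CTR9 (0.14, adjusted p = 0.033, limma) rose and 4 genes did not pass. Among SPT6 partners, the histone chaperone FACT and other elongation factors, SETD2, which methylates histone H3 behind the polymerase, rose (log2 change 0.15, adjusted p = 0.0212, limma), and 6 of 7 genes did not pass. SETD2 lost its call without vehicle replicate 2, without vehicle replicate 4 or without LLY-283 replicate 1 (log2 change from 0.13 to 0.16, adjusted p from 0.0511 to 0.0563, limma).

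In the super elongation complex, which carries P-TEFb, 1 of 11 genes rose and 2 fell, so that 27.3% were called, close to the 26.2% of all genes tested. ELL2, one of its elongation factors, rose from 33.7 ± 2.06 to 39.4 ± 1.45 TPM (SD over 4 libraries each), a log2 change of 0.23 (adjusted p = 0.0103, limma). ELL3 fell from 2.80 ± 0.158 to 1.81 ± 0.0988 TPM (log2 change -0.60, adjusted p = 0.00424, limma), and at this low level the pseudocount understates the change. AFF2 fell with a log2 fold change of -0.29 (adjusted p = 0.0257, limma).

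The phosphatases that oppose these kinases on the CTD and on SPT5 had 3 of 9 genes higher and 3 lower, where 8.61% of all genes tested were higher and 17.6% lower, and no test compared the lists. SSU72, a CTD phosphatase, rose from 113.6 ± 1.84 to 139.5 ± 6.82 TPM (SD over 4 libraries each), a log2 change of 0.30 (adjusted p = 0.000558, limma). RPAP2, another CTD phosphatase, fell from 18.8 ± 1.48 to 13.5 ± 0.822 TPM (log2 change -0.48, adjusted p = 0.00113, limma). PPP4R2, a regulatory subunit of the phosphatase PP4, and CTDP1 also rose, with log2 fold changes of 0.22 and 0.19 (adjusted p = 0.0171 and 0.0369, limma). They did not both keep their call with a replicate block. CTDSPL and CTDSP2 fell, with -0.41 and -0.22. PPP1R10 (log2 fold change -0.07, adjusted p = 0.141, limma), the PNUTS subunit that targets PP1 to the polymerase, did not pass. In the kinase modules of TFIIH and Mediator 7 of 8 genes did not pass, among them CDK7 and CDK8, and MED12 fell (log2 fold change -0.35, adjusted p = 0.0147, limma).

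Of the 12 subunits of RNA polymerase II, 2 rose and 2 fell, so that 33.3% were called beside 26.2% of all genes tested. POLR2A, which encodes the largest subunit with the CTD, fell from 137.6 ± 7.51 to 113.8 ± 11.8 TPM (SD over 4 libraries each), a log2 change of -0.28 (adjusted p = 0.0215, limma). The groups of POLR2A did not overlap, but its call was lost when vehicle replicate 1, 3 or 4 was left out (log2 change from -0.28 to -0.25, adjusted p from 0.0562 to 0.0682, limma) and, at a log2 change of -0.28, under the filter of a mean above 0 TPM (adjusted p = 0.0545, limma). POLR2G fell (log2 fold change -0.13), and POLR2F and POLR2C rose (0.17 and 0.15). In Integrator, which ends transcription by paused polymerase, INTS11, the catalytic subunit, rose (log2 fold change 0.17, adjusted p = 0.00519, limma), as did INTS13 (0.16, adjusted p = 0.0382), and 11 of 14 genes did not pass. INTS13 and POLR2C belong to the genes of which most lost their call with a replicate block. INTS10 passed just under the threshold (log2 fold change -0.15, adjusted p = 0.0487, limma) with groups that overlapped, and in 13 of 19 alternatives it did not.

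Of 4 damage response genes known to depend on CDK12, 3 fell. BRCA1, which acts in homologous recombination, fell from 33.1 ± 2.04 to 26.2 ± 0.651 TPM (SD over 4 libraries each), a log2 change of -0.34 (adjusted p = 0.00116, limma). FANCI and FANCD2, the paired proteins of the Fanconi anemia pathway, fell with log2 fold changes of -0.35 (adjusted p = 0.00177) and -0.26 (adjusted p = 0.0238, limma), and ATR had -0.02 (adjusted p = 0.849). Of all genes tested, 17.6% were lower. BRCA1 kept its call in each of 19 alternatives. In the pathway lists 8 genes fell in place of 13 under the filter of a mean above 0 TPM, and 8 without vehicle replicate 4. Whether FANCI and FANCD2 kept their calls there is not given here.

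**Figure D5:**
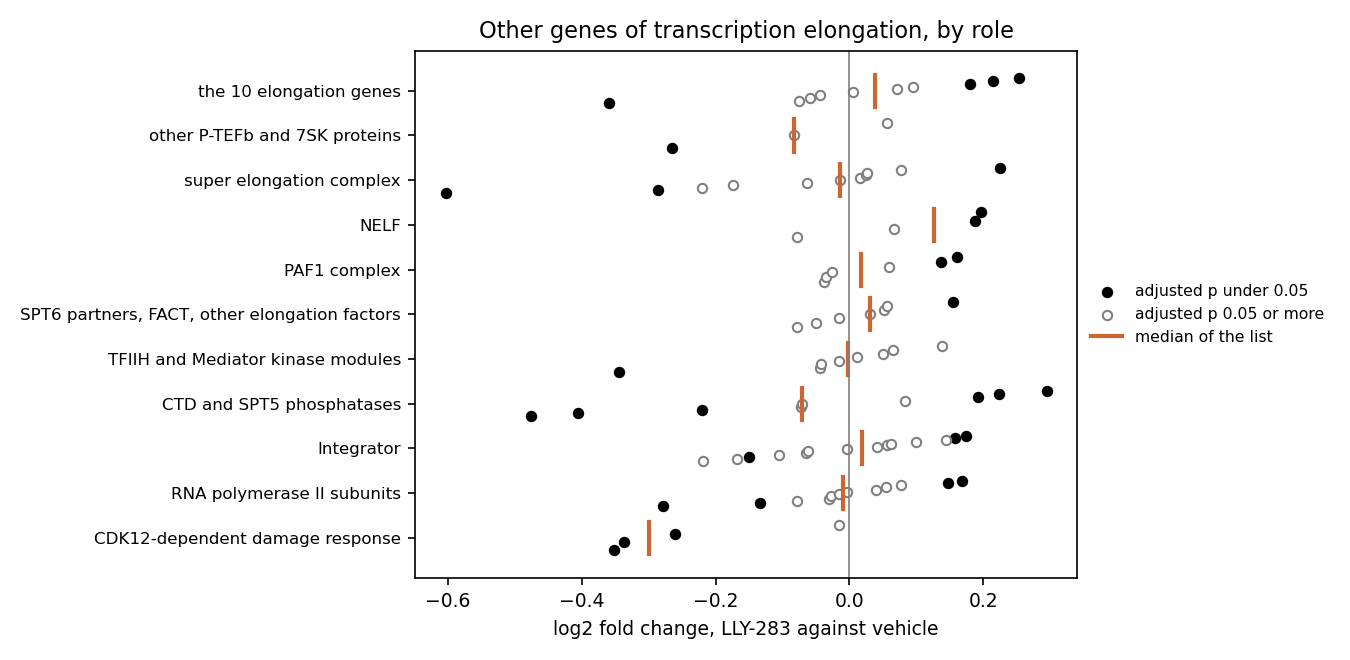
Log2 fold change (LLY-283 against vehicle, limma) of each gene in the 10 members and in the 10 lists. The lists cover the elongation machinery and the damage response genes known to depend on CDK12. Points are filled where the adjusted p-value was under 0.05, with an orange bar at the median of the list. Filled points lie on both sides of 0 in the members, the super elongation complex, the phosphatases, Integrator and the polymerase subunits.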

How the data were processed

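The authors captured poly(A) RNA, removed adapters, aligned reads to GRCh38 (STAR), estimated gene expression with RSEM on the GENCODE annotation and deposited TPM values per gene and library. The submitters' processing notes name cutadapt 1.18, STAR 2.7.0f and RSEM 1.3.1, and the study's methods name other versions of STAR and RSEM. Depth cannot be read from TPM, and a TPM value is divided by a transcript length that changes where isoforms change.

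From these values log2(TPM + 0.1) was compared between 4 LLY-283 and 4 vehicle libraries with limma 3.58.1 (R 4.3.3, eBayes with trend, no replicate block) over 14478 genes (mean TPM of 1 or more), with Benjamini-Hochberg adjustment over all of them. A call is an adjusted p under 0.05. Each log2 change is a difference of mean log2(TPM + 0.1), which understates changes of low genes. Ratios of partners were compared with exact permutation tests. On simulated data for this comparison over 14478 genes, 41 of 100 genes changed by 0.3 on the log2 scale and 80 of 100 changed by 1 were called, with 8 of 14278 unchanged genes. Far fewer genes were changed there than the 3788 called in the data, so the adjustment was stricter in the simulation. The simulated shares therefore do not give the sensitivity of the test on the data.

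The members and lists were chosen with earlier results of these data known, and some list genes are not reported here. Named were the 10 members, CCNT2, HEXIM2, MEPCE and RN7SK, overlapping genes and copies of members, and in each list the called gene with the smallest p in each direction, while the remaining list genes were picked with their values in view. Positions and exon numbers (of the canonical transcript) came from GENCODE release 44 on GRCh38, and promoter sequences, matched by symbol for 10 of 10 members, from RefSeq (GRCh38.p14).

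The alternatives were pseudocounts of 0.5 and 1, filters of a mean above 0 TPM and of at least 5 TPM, quantile normalization, median-of-ratios scaling, eBayes without trend or robust, a replicate block, subtraction of the dependence on GC content and length (splines with 4 degrees of freedom) and each library left out. Leaving out mitochondrial genes was added after seeing the data.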

Additional observations from a re-analysis of the deposited data

Results flagged for a closer look

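A library that lay far from the other 3 of its group was found in 12 of the 68 groups of 4 values examined, where chance gives about 1 in 20. Among the members, SUPT4H1 had its lowest vehicle value, 61.18 TPM, in replicate 3, and CDK13 its highest LLY-283 value, 38.94 TPM, in replicate 3. The ratio of CCNK to CDK12 plus CDK13 had its highest vehicle value, 0.767, in replicate 2. RN7SK stood apart in both groups, with 100.60 TPM in vehicle replicate 1 and 34.95 TPM in LLY-283 replicate 3. Of the other genes, CCNT2 had 20.18 TPM in vehicle replicate 3, ELL2 30.63 TPM in vehicle replicate 4, POLR2F 112.7 TPM in vehicle replicate 2, NELFCD 99.41 TPM in LLY-283 replicate 3, LEO1 54.88 TPM in LLY-283 replicate 2 and SSU72 149.7 TPM in LLY-283 replicate 4. The mitochondrial share of TPM was 7.19% in LLY-283 replicate 4.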

How the results depend on the processing

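SUPT4H1, SUPT6H, CCNK and CDK9 kept their direction and their call in each of 19 alternatives, with log2 fold changes from 0.21 to 0.30, 0.19 to 0.26, 0.16 to 0.23 and -0.40 to -0.32. With mitochondrial genes left out and with the dependence on GC content and length taken out, HEXIM1 passed as well, at -0.0849 and -0.0860, so that 2 members were lower in place of 1. Under quantile normalization CCNT1 passed at 0.16. Signs close to 0 turned for SUPT5H with median-of-ratios scaling (0.0006), for CDK13 with that dependence taken out (-0.0266) and without mitochondrial genes (-0.0039), and for HEXIM2 under quantile normalization (0.0303). Over all genes, 1871 rose under quantile normalization and 1927 when scaled by median of ratios, against 1247. In the pathway lists 8 genes fell when the filter was a mean above 0 TPM, where more genes were tested, against 13. When single libraries were left out, the members called ranged from 3 to 4 higher and 1 to 2 lower, the genes of the pathway lists from 9 to 11 higher and 8 to 14 lower (8 without vehicle replicate 4), and all genes from 888 to 1508 higher and 1889 to 2659 lower. In the same fits the log2 fold change of CDK13 ranged from -0.0260 to 0.0227, of HEXIM1 from -0.0964 to -0.0604 and of LARP7 from 0.0684 to 0.15. No ratio of partners passed after adjustment over the 6 ratios in any alternative. With 4 against 4 libraries the exact p cannot go below 0.0286. A ratio could thus pass only if several others reached that floor too, so the missing calls do not measure the size of the changes.

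The deviations of same-numbered libraries from their group means correlated between -0.0851 and 0.032. Those of differently numbered libraries correlated between -0.213 and 0.201. No effect shared by same-numbered libraries was thus seen, but these values cannot tell whether the cultures were prepared in pairs. With a replicate block 3296 genes were called in place of 3788, 3 members were higher and 1 lower, and the pathway lists had 8 genes higher, against 13, and 10 lower. In the block the exact sign-flip test of the ratios cannot go below p = 0.125. Depth is unknown, so no limit from counting can be given for genes at low TPM.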
